A study of Homo sapiens with 2 samples.

Results

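Interferon-stimulated effector genes are the genes that interferon switches on to block viruses inside the cell, and 46 of them were followed in HT-29, a cell line of human colorectal adenocarcinoma, given siRNA against MYC. They were taken as a named list of effectors other than the IFIT, OAS and RIG-I-like RNA sensors, and each of the 46 had a probe set that names it alone, out of 19775 genes with such a probe set on the array. Expression was measured on 2 arrays, 1 of cells transfected with the ON-TARGETplus Non-targeting Pool and 1 of cells given the ON-TARGETplus SMART pool against MYC. Both groups are the same line, received 20 nM siRNA for 24 h and were used after 48 h. The treatment field of the control sample reads None, while its protocol gives the non-targeting pool, so it is called control siRNA here. With 1 array in each group no difference has a replicate check, no p-value was computed, and every value below describes these 2 cultures.

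Type I and type III interferons act through the kinases JAK1 and TYK2, and a complex that contains IRF9 then binds the interferon-stimulated response element (ISRE) in promoters. Type II interferon acts mainly through another promoter element, the gamma-activated site (GAS). The genes switched on in this way include ISG15, a ubiquitin-like modifier, the IFITM proteins, which hinder entry of viruses at membranes, the MX and GBP GTPases, and enzymes that edit, cut or sense foreign RNA. Epithelial cells of the gut respond mainly to type III interferon, and many of these genes also have a low basal level without added interferon.

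Most promoters of the list hold the letters of an ISRE. RefSeq promoters (GRCh38.p14, 250 bases before to 50 after each start) were at hand for 39 of the 46 genes, 14 of which had several. The ISRE core GAAANNGAA, sought on both strands, was in at least 1 promoter of 30 of the 39 genes (76.9%), whereas 9.86% of all 27305 genes with a promoter had it. A GAS (TTCNNNGAA) was in 10 of the 39 (25.6%, against 9.38% of all genes) and an E-box (CACGTG), the letters that MYC with MAX is known to bind, in 6 (15.4%, against 8.77%). In 5 genes (BST2, EPSTI1, IFI27, IFITM1 and MX1) an ISRE core overlapped a GAS. The genes were listed because interferon induces them, so the share with an ISRE is part of what defines the list and not a finding of the arrays.

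The 160 bases before the start are printed for ISG15, which holds overlapping cores, and for 5 of the genes that were higher by at least 2-fold. They are also printed for TRIM14, the only gene with a fold that was lower. The 5 all hold a core, whereas IFI35, at least 2-fold higher too, held none in its window and is not printed. PARP9, not printed either, held a core, and OASL had no promoter at hand. Each sequence runs 5′ to 3′ on the strand of the gene, and IFI27 is shown for the upstream of its promoters. Capitals mark each ISRE core, which appears as its reverse complement where it lies on the other strand, and overlapping cores run together.
ISG15 (chr1:1013337-1013496, plus strand): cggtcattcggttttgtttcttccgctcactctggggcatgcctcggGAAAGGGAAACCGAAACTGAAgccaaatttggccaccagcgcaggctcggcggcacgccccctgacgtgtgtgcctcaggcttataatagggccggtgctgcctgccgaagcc
IFI27 (chr14:94110576-94110735, plus strand): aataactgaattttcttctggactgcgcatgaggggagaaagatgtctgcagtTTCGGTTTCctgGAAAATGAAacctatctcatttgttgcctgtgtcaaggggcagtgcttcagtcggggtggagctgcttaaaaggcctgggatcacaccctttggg
DDX60 (chr4:168318753-168318912, minus strand): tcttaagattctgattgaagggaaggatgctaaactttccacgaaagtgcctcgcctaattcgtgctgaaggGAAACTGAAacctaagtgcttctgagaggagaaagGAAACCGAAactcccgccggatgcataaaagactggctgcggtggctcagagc
IFI6 (chr1:27672193-27672352, minus strand): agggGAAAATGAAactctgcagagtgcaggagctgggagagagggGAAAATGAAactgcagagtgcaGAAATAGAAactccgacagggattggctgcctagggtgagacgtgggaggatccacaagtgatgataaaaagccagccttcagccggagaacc
IFITM3 (chr11:320861-321020, minus strand): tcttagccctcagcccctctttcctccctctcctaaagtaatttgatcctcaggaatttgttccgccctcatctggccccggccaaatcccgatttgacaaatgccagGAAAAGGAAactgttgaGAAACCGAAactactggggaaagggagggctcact
PARP14 (chr3:122680679-122680838, plus strand): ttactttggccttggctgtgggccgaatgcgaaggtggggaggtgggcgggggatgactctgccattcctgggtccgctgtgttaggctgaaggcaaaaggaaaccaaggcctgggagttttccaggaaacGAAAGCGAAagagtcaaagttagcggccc
TRIM14 (chr9:98119223-98119382, minus strand): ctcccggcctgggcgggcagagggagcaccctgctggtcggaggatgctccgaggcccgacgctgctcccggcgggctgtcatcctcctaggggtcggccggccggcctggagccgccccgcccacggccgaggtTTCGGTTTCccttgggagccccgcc
ISG15 carried 3 overlapping cores, which begin at -113, -107 and -101 from the start. IFI6 carried 3 separate cores and DDX60, IFI27 and IFITM3 carried 2 each in these stretches, while PARP14 and TRIM14 carried 1.

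Signals are MAS5 values on a linear scale, each array scaled to a mean target of 100. Signals under 50 were raised to that floor, the signal after MYC siRNA was divided by that of the control, and a gene was counted where the quotient was 2 or more, or 0.5 or less. Each gene took its brightest probe set, 39 of the 93 probe sets of the 46 genes being above 50 in at least 1 array. Where the control was under 50 a fold is a lower bound, and where both arrays were at or under 50 no fold is given. Where signals are given in pairs, the control comes first. MYC itself, read by 1 probe set, was at 1963 in the control and 1640 after its own siRNA, 1.20-fold lower (log2 ratio -0.26). That value is of mRNA only. The paper reports knockdown in HT-29 cells from immunoblots of MYC protein, and lower expression of curated MYC target genes. When genes above the floor were split by mean signal into 5 groups of like size, the median log2 ratio went from 0.15 for the dimmest group down to -0.10 for the brightest, so dim genes leaned upward on these arrays. Probe sets of 1 gene differed in log2 ratio with an SD of 0.27 in dim, 0.23 in middle and 0.18 in bright genes, and it leaves out variation between cultures. Of 10 colon epithelial markers 8 were above 50, among them KRT18 (9363 and 9158) and KRT8 (8243 and 9306), although the intestinal factors CDX1 and CDX2 were under 50 in both arrays. All 5 leukocyte markers measured (PTPRC, CD3E, CD14, CSF1R and ITGAM) were under 50 in both arrays, as were all measured markers of other cells except COL1A1 (94.7 with control and 78.9 after MYC siRNA). In such bulk samples a smaller number of expressing cells and less RNA per cell cannot be told apart.

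Of the 46 genes, 8 were higher with MYC siRNA by at least 2-fold and 0 were lower by as much, beside 1.23% and 0.314% of all genes. These were IFI27, DDX60, OASL, IFI35, PARP14, IFITM3, IFI6 and PARP9. A signal above 50 in either array was reached by 29 genes, of which 28 were higher and 1 was lower. The median log2 ratio of the 29 was 0.57, while that of all 8917 genes above 50 was 0.03 and 2.73% of those reached 2-fold higher. Of the 29, 8 were above 50 only with MYC siRNA and could therefore only be higher. Among the 21 genes above 50 with control siRNA, where either direction could be seen, 20 were higher and 1 was lower, with a median of 0.50. Among all 8427 genes above 50 with control siRNA, 50.8% were higher and the median was 0.01.

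**Figure D1:**
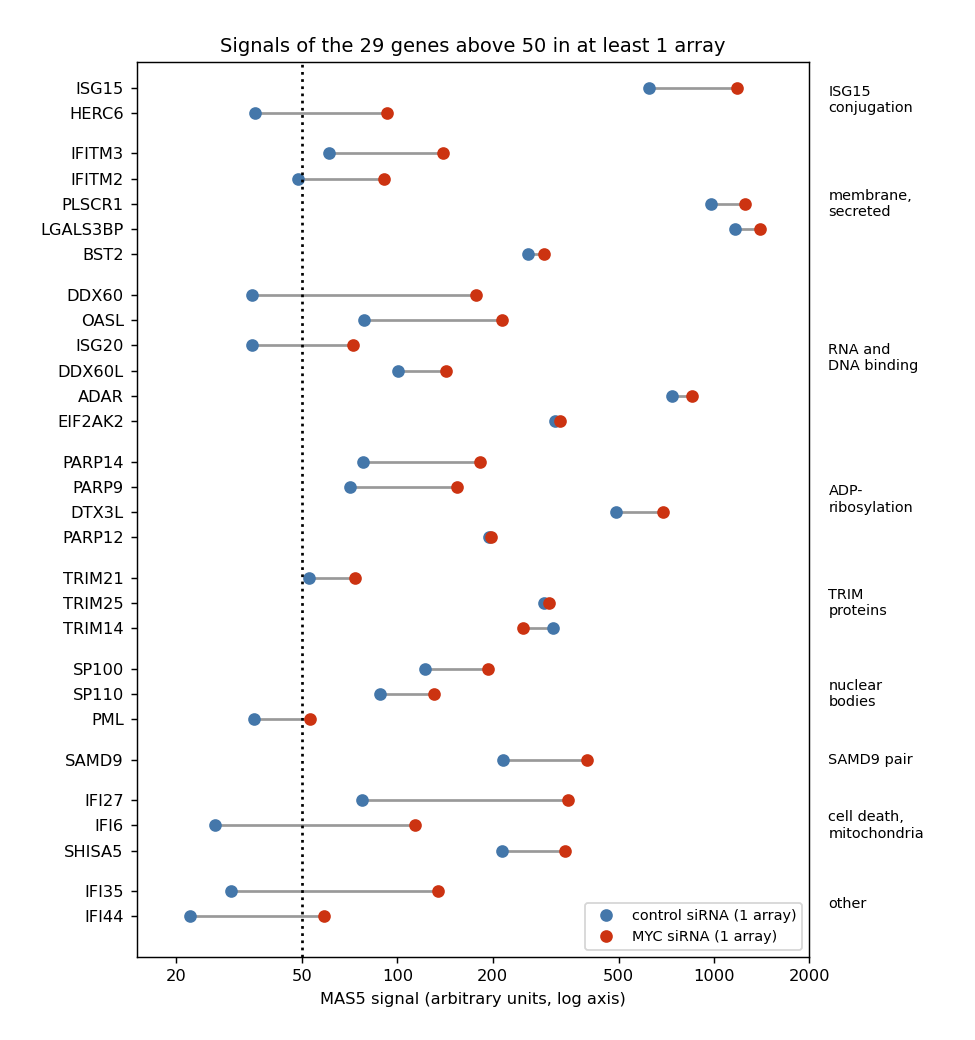
MAS5 signal (x axis, log scale) of the 29 effector genes above 50 in at least 1 array (y axis, grouped by role), with blue points for the control siRNA array and red points for the MYC siRNA array; the dotted line marks the floor of 50. The red point lies right of the blue one in 28 genes, from IFI27 (77.1 and 347) to PARP12 (195 and 198), and left of it in TRIM14 (310 and 249).

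Among genes above 50 with control siRNA, the ratios were largest where that signal was 100 or less. The control signal is also the divisor of the ratio, which by itself favours high ratios at low control signals. Of 7 genes with a control signal above 50 to 100, 5 were at least 2-fold higher, while 6.67% of all genes in that range were, and the medians of the log2 ratio were 1.20 and 0.20. Of 25 genes at or under 50 with control siRNA, where a fold could only be higher, 3 were (0.441% of all such genes). Of 7 genes with a control signal above 100 to 300 none reached 2-fold (2.2% of all genes did), but all 7 were higher, with a median of 0.50 against 0.06. Of 7 above 300 none reached 2-fold (0.733%), and 6 were higher, with a median of 0.26 where all genes of that range had -0.08.

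**Figure D2:**
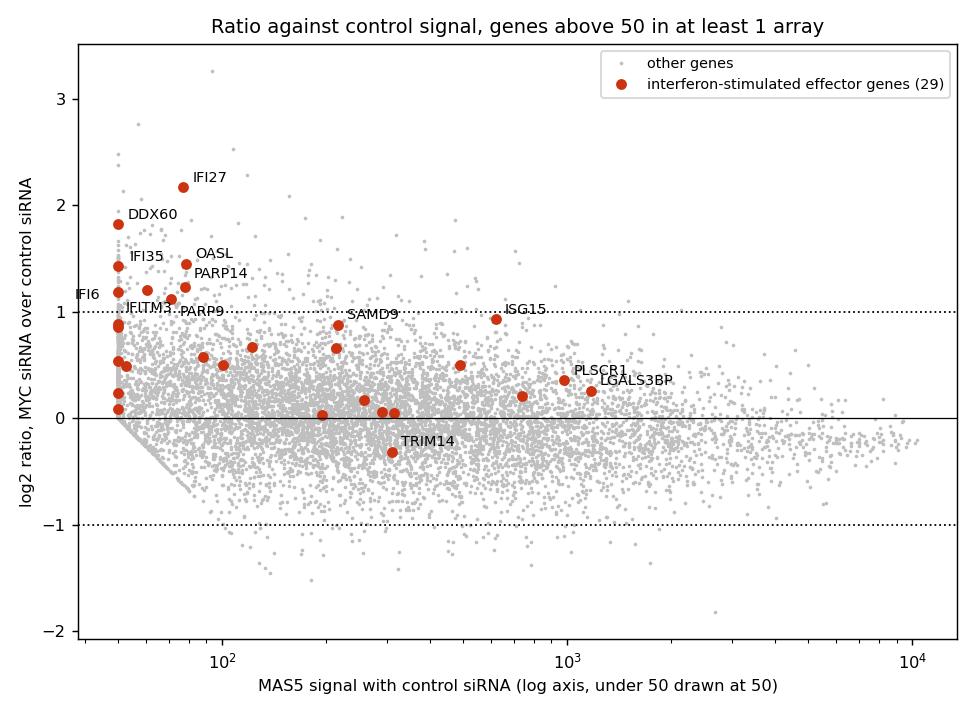
Log2 of the MYC siRNA signal over the control signal (y axis) against the control signal (x axis, log scale, under 50 drawn at 50) of the 8917 genes above 50 in at least 1 array, with the 29 effector genes in red and dotted lines at 2-fold. All red points except TRIM14 (-0.32) lie above 0, and those over the upper line have control signals under 100.

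Among genes of mitochondria and cell death, 3 of 4 were above 50 and each of these was higher by at least 1.5-fold, as were 10.4% of all 8917 genes above 50. IFI27, a small mitochondrial membrane protein, was at 77.1 in the control and 347 after MYC siRNA, 4.49-fold higher. IFI6, a related membrane protein that counters apoptosis, was at 26.6 and 114, at least 2.27-fold higher, and passed 50 only in the MYC siRNA array. SHISA5, a membrane protein linked to p53-dependent apoptosis, was at 213 and 337, 1.58-fold higher. All of these were brighter in the MYC siRNA array, and IFI27 and SHISA5 were above the floor in both. XAF1, an antagonist of the apoptosis inhibitor XIAP, was under 50 in both arrays in its 3 probe sets.

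Of the 5 genes grouped under ISG15 conjugation 2 were above 50, and both were higher, beside 53.5% of all genes above 50. HERC6 is a lower bound and could only be higher. Signals of different probe sets depend on the probes, so levels are not compared between genes here. ISG15, which is attached to other proteins much as ubiquitin is and is also secreted, was at 621 in the control and 1182 after MYC siRNA, 1.90-fold higher. HERC6, of the HERC ligase family, was at 35.5 and 92.6, at least 1.85-fold higher. The other 3 were under 50 in both arrays. UBE2L6, the conjugating enzyme, was at 13.0 and 33.2, HERC5, a ligase for ISG15, at 9.19 and 17.6, and USP18, which removes ISG15 and restrains the type I receptor, at 19.6 and 22.0. Among these genes a fold with both signals above the floor was thus had for ISG15 alone.

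Of the 7 membrane and secreted effectors 5 were above 50, and all 5 were higher, beside 53.5% of all genes above 50. IFITM2 is a lower bound and could only be higher, and IFITM3 was higher by at least 2-fold. IFITM3, which keeps viruses from fusing with endosomal membranes, was at 60.7 in the control and 140 after MYC siRNA, 2.30-fold higher. IFITM2 was at 48.4 and 90.4, at least 1.81-fold higher, whereas IFITM1, the family member of the cell surface, was at 7.61 and 24.5. The IFITM genes are near-identical neighbours, the probe sets of IFITM2 and IFITM3 are of a kind that can bind several transcripts, and a further probe set that names both IFITM1 and IFITM2 was at 9.64 and 15.4, so how the signal divides between these genes is uncertain. PLSCR1, a phospholipid scramblase, was at 980 and 1254, 1.28-fold higher. LGALS3BP, a secreted glycoprotein that binds galectin, was at 1168 and 1396, 1.20-fold higher. BST2, known as tetherin since it holds budding viruses at the surface, was at 258 and 290, 1.12-fold higher, which is within the SD between probe sets. RTP4, a chaperone of receptors, was at 1.01 and 7.87.

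Of the 7 genes of proteins that bind nucleic acids 6 were above 50 and all 6 were higher. Of all genes above 50, 53.5% were. DDX60 and ISG20 are lower bounds and could only be higher, and DDX60 and OASL were past 2-fold. DDX60, a helicase described as a helper of RIG-I, was at 34.8 in the control and 177 after MYC siRNA, at least 3.53-fold higher. Its neighbour and paralogue DDX60L was at 101 and 142, 1.41-fold higher. OASL, an OAS-like protein that promotes RIG-I signalling, was at 78.5 and 215, 2.73-fold higher, and its other probe set was at 61.8 and 176. ISG20, an exonuclease that degrades RNA, was at 34.8 and 72.4, at least 1.45-fold higher, and its other probe set was at 2.23 and 55.1. EIF2AK2 and ADAR, which act on double-stranded RNA, differed little. EIF2AK2, the kinase PKR that halts translation, was at 316 and 327, 1.04-fold higher, with a second probe set at 269 and 316. ADAR, which edits adenosine to inosine in double-stranded RNA, was at 738 and 854, 1.16-fold higher. IFI16, a sensor of DNA, was under 4 in both arrays in all 3 probe sets, at most 3.87.

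All 4 ADP-ribosylation genes were above 50, as were 45.1% of all genes. PARP14 and PARP9 were higher by at least 2-fold, beside 2.73% of all genes above 50. PARP14, a mono-ADP-ribosyltransferase, was at 77.8 in the control and 183 after MYC siRNA, 2.35-fold higher. PARP9, the partner of the ubiquitin ligase DTX3L, was at 70.9 and 154 in its brighter probe set, 2.17-fold higher, but at 58.2 and 52.2 in its other one, so its direction is uncertain. DTX3L was at 490 and 692, 1.41-fold higher. PARP12, which binds RNA through zinc fingers, was at 195 and 198, a log2 ratio of 0.03. DTX3L and PARP9 are next to each other on the chromosome, and PARP14 lies close by, while PARP12 lies elsewhere. Of these neighbours DTX3L did not reach 1.5-fold, which 10.4% of all genes above 50 did, and PARP9 was lower in its second probe set. The 1 coding gene between DTX3L and PARP14 is not on the list and was not examined.

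TRIM14, an adaptor of mitochondrial antiviral signalling, was the exception of the list. It was at 310 in the control and 249 after MYC siRNA, 1.25-fold lower, and its second probe set above 50 was at 152 and 116, lower too. TRIM25, the ubiquitin ligase that acts on RIG-I, was at 291 and 302, and TRIM21, a cytosolic receptor for antibodies, at 52.6 and 73.6, a log2 ratio of 0.49. TRIM22, a nuclear TRIM protein, was at 4.75 and 9.25.

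Of the 3 nuclear body genes SP100 was higher by at least 1.5-fold and none by 2-fold, and of the SAMD9 pair SAMD9 alone was above 50. Of all genes above 50, 10.4% were higher by at least 1.5-fold and 2.73% by at least 2-fold. SP100, a scaffold of PML bodies, was at 122 in the control and 193 after MYC siRNA, 1.58-fold higher, with a second probe set at 128 and 179. SP110, a relative with a DNA-binding domain, was at 88.0 and 131, 1.49-fold higher, and all 3 of its probe sets above 50 were higher. PML itself had 10 probe sets, and the brightest barely passed the floor, at 35.3 and 53.0, with a direction that turned under loess. SAMD9, an inhibitor of poxviruses that slows translation, was at 216 and 397, 1.84-fold higher, and its second probe set was at 74.2 and 114. The neighbouring paralogue SAMD9L was at 7.67 and 8.97 at most. IFI35, which also acts as an alarm signal outside the cell, was at 29.8 and 134, at least 2.69-fold higher, and IFI44, a cytoplasmic protein, was at 22.1 and 58.7, at least 1.17-fold higher.

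**Figure D3:**
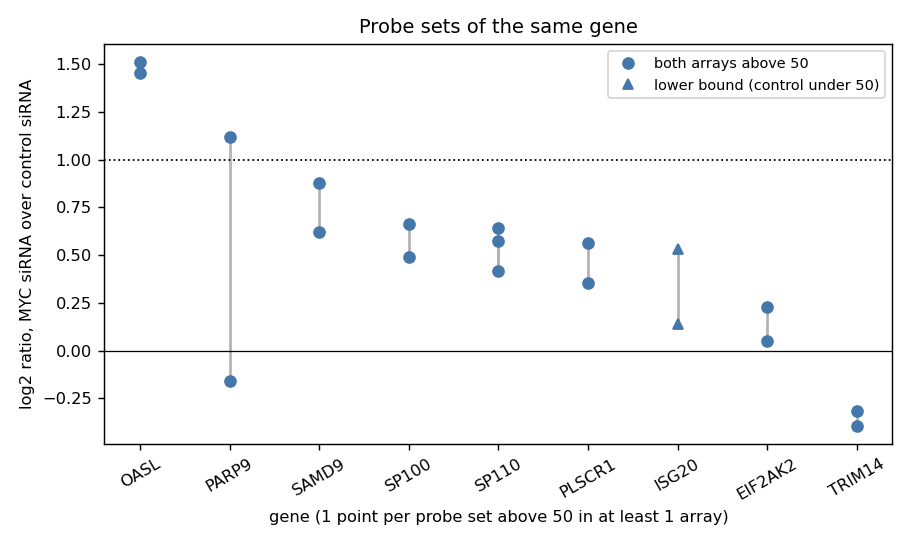
Log2 of the MYC siRNA signal over the control signal (y axis) of every probe set above 50 in at least 1 array, for the 9 effector genes with at least 2 of them (x axis); triangles are lower bounds and the dotted line marks 2-fold. The probe sets of PARP9 lie on both sides of 0 (1.12 and -0.16), while those of the other 8 genes lie on 1 side, TRIM14 below 0 and 7 above it, of which ISG20 is shown by lower bounds that could only be above 0.

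Where 1 gene was measured several times, the probe sets mostly gave the same direction. Of the 9 genes with 2 or more probe sets above 50, ISG20 passed in both only through the MYC siRNA array and so could only be higher. Of the other 8, 6 were higher in each probe set and TRIM14 was lower in each. The share of all genes whose probe sets gave 1 direction was not computed. Of the genes at least 2-fold higher, only OASL and PARP9 are among the 9. PARP9 was the only gene with both directions, and its probe sets lay 1.27 apart on the log2 scale. Among the 7 genes with 1 direction the spread was between 0.06 (OASL) and 0.26 (SAMD9). Of the 46 genes, 24 rest on a single probe set, among them IFI27, DDX60, IFI35, IFI6, IFITM3 and ISG15.

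The remaining 17 genes were at or under 50 in both arrays, so their ratio is not given. They include the MX GTPases, which trap viral nucleocapsids, at 7.37 and 19.9 for MX1 and 6.56 and 25.8 for MX2, and the guanylate-binding proteins, which attack vacuoles of pathogens, at 1.08 and 8.78 for GBP1 and 24.2 and 12.3 for GBP2. RSAD2 (viperin) and CMPK2, neighbours whose products make and feed an antiviral nucleotide, were at 4.25 and 11.4 and at 13.5 and 43.1. EPSTI1 was at 1.78 and 11.5 and IFI44L at 0.199 and 5.99. Several textbook interferon markers of this kind were thus not measured above the floor in either array. Below the floor the numbers are not comparable gene by gene. As a description, the raw signal was larger with MYC siRNA in 16 of the 17, the exception being GBP2, while it was larger in 56.1% of all 10858 genes at or under 50 in both arrays.

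Several of the genes lie side by side with another gene of the list. SAMD9 was above 50 in both arrays and HERC6 and IFI44 were above it only with MYC siRNA, while the probe sets of their neighbours SAMD9L, HERC5 and IFI44L were under 50 in both. The log2 ratio was at least 1.82 for DDX60 and 0.50 for DDX60L. MX1 with MX2, GBP1 with GBP2, and RSAD2 with CMPK2 were under the floor as pairs.

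Genes with and without the ISRE letters overlapped in their ratio. Of the 26 genes with a promoter at hand and a signal above 50, the 20 with an ISRE core had a median log2 ratio of 0.52 (-0.32 to 2.17) and the 6 without had 0.62 (0.06 to 1.43). TRIM14, PARP12 and EIF2AK2, the genes with the lowest ratios in that group, each held a core within 25 bases before the start, as the stretch of TRIM14 printed above shows. IFI35, HERC6, SP100, SP110, ADAR and TRIM25 held none in these windows. The 7 genes with a GAS had a median of 1.23 and the 19 without 0.50. The 5 genes with an E-box and a signal above 50 (ADAR, EIF2AK2, ISG20, SP100 and TRIM25) had a median of 0.21, and the 21 without had 0.66. Lower bounds, such as that of ISG20, enter these medians at the bound. The groups are small, genes can hold several motifs, and no test was made.

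**Figure D4:**
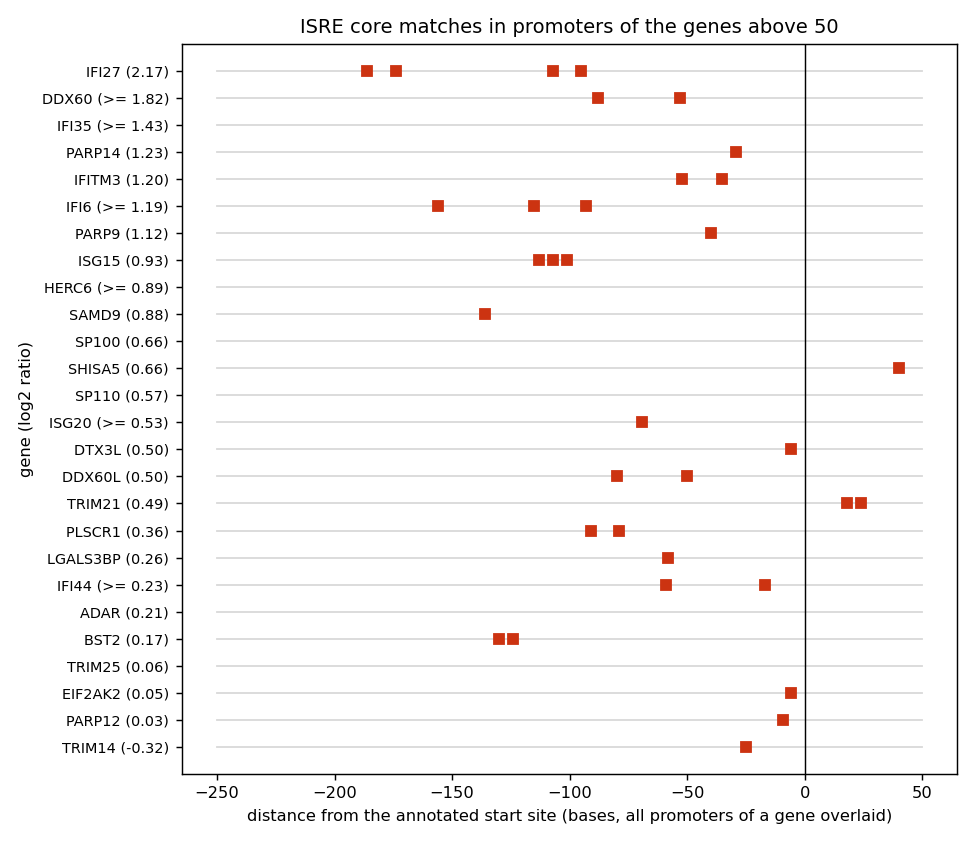
Position of each ISRE core match (red squares, x axis in bases from the annotated start at 0, all promoters of a gene overlaid) in the 26 effector genes with a promoter and a signal above 50, ordered by log2 ratio (in brackets). Matches occur from IFI27 (2.17) at the top to TRIM14 (-0.32) at the bottom, and 6 genes have none.

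Other genes of the interferon pathway, from a list of 50 chosen with earlier results of these data known, were compared in the same way. Of the 50, 45 were analysed here. Of the 45, 29 were above 50 in at least 1 array, 25 higher and 4 lower, with a median log2 ratio of 0.48. Of the 29, 7 were above 50 only with MYC siRNA and could therefore only be higher. At least 2-fold higher were 5, and 0 were lower by as much. Of all 8917 genes above 50, 53.5% were higher and 2.73% were at least 2-fold higher. None of 7 interferon genes was above 50 in either array, the highest being IFNE, an epithelial type I interferon, at 8.50 in the control and 29.7 after MYC siRNA. Of 6 receptor genes 4 were above 50, and none differed by 1.5-fold. IFNGR1 was at 1264 and 1362 and IFNAR2 at 64.1 and 78.4, while IFNAR1 and IFNLR1, of the type I and type III receptors, were under 50 in both arrays. Among the kinases, STAT and IRF genes no fold computed with the floor reached 2, although IRF5 (40.8 and 97.5, at least 1.95-fold) and IRF9 are lower bounds. The values were, for IRF7, the factor that amplifies interferon production, 132 and 231 (1.75-fold), for STAT3 254 and 389 (1.53-fold), and for IRF9, the DNA-binding part of the ISRE complex, 21.7 and 63.5 (at least 1.27-fold). PTPN6, a phosphatase that restrains JAK signalling, was at 76.0 and 127, 1.67-fold higher. The 5 at least 2-fold higher were all sensors or effectors of RNA. These were IFIT3 (51.7 and 227), OAS1 (55.9 and 174), IFIT1 (30.5 and 142), OAS3 (125 and 275) and RIGI (52.8 and 114), the last with other probe sets at 19.1 and 58.7 and at 22.8 and 44.4. The fold of IFIT1 is a lower bound. The other probe set of IFIT3 was at 63.5 and 98.7. CGAS, the sensor of cytosolic DNA, was lower, at 91.4 and 68.3.

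The floor moved the count of 8 more than the scalings between arrays did. With signals under 100 set to 100, 2 of the 46 genes (IFI27 and OASL) were at least 2-fold higher, beside 1.72% of all genes above that floor. With signals under 25 set to 25, 11 were, beside 3.91%. Median centring and quantile normalization each left 8, and loess on the mean signal left 7.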

How the data were processed

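RNA of HT-29 cells was measured on 2 Affymetrix Human Genome U133 Plus 2.0 arrays, 1 for each siRNA pool. The deposited intensity values are signals that the authors computed with the MAS5 algorithm in affy 1.40.0 and scaled to a mean target of 100 per array, with no floor, logarithm or normalization between arrays. Trimmed by 2% at each end, the mean signal was 100 on both arrays. The platform annotation pairs 41097 of the 54675 probe sets with 1 gene, 1801 with several and 11777 with none. Only those with 1 gene were used, with symbols updated through gene identifiers to RefSeq (GRCh38.p14). Each gene was read from its brightest probe set by mean signal, signals under 50 were set to 50, and the log2 of MYC siRNA over control was taken. Each group has 1 array, so no test was run. The number of arrays limits the precision, and the SD between probe sets of a gene is the only error given.

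The 46 genes, their roles, the pathway list and the motifs were chosen with earlier results of these data known. All 46 genes were accounted for. Pathway genes were named where the ratio was at least 1.5-fold and the brighter array at least 100, and other pathway genes were named after their values were seen. Promoters are RefSeq's. The calculations were tested on simulated data. Alternatives were floors of 25 and 100, no floor with 1 added, median centring, quantile normalization, loess with a span of 0.3, means over probe sets, leaving out probe sets named _x_at or _s_at, a brighter array of at least 100, and thresholds of 1.5-fold and 3-fold. Calculations ran in statsmodels 0.14.6, scipy 1.17.1, pandas 2.3.3 and numpy 2.4.6 under Python 3.11.15, and plots in matplotlib 3.10.9.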

Additional observations from a re-analysis of the deposited data

How the results depend on the processing

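The number of genes higher by at least 2-fold, 8 as reported, was 2 with a floor of 100, 4 without probe sets named _x_at or _s_at (where 15 genes remained above 50, 14 of them higher), 14 at a threshold of 1.5-fold and 2 at 3-fold. Of all genes above the floor 2.73% were higher by as much as reported, 1.72% with a floor of 100, 2.74% without those probe sets, 10.4% at 1.5-fold and 0.437% at 3-fold. It was between 6 and 11 under the other alternatives, and no gene was lower by as much under any alternative run. The median log2 ratio of the genes was 0.44 with the mean over all probe sets, which counts those at or under 50 in both arrays as 0, and between 0.48 and 0.66 otherwise, beside 0.57 as reported. PARP9 was the only gene at least 2-fold higher that changed sign, to -0.16 without probe sets named _x_at or _s_at, since only its second probe set is left. Of the low ratios, PARP12 changed sign in 3 alternatives and PML in 1. Of 264 single values, 234 moved by less than the SD of 0.23 between probe sets, 29 moved by more, and the last is the sign change of PARP9. Part of the 234 could not move. Asking for a brighter array of at least 100 keeps each ratio, and a mean over 1 probe set equals it. Genes that an alternative left out are not counted. A shift of a median by 0.1 or of a count by over 1.5 times was taken as moved. With 1 array in each group, differences between cultures, transfections or hybridizations cannot be told apart from that of the siRNA.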
